A study of Mus musculus with 10 samples.

Results

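The proteasome genes described here were the protein-coding genes whose symbol starts with Psm followed by a letter from a to g and a number, leaving out the immunoproteasome genes Psmb8, Psmb9 and Psmb10. They were chosen by symbol alone, and 47 of the 55401 genes in the count table met this rule. The tumors grew in male C57BL/6J mice with diet-induced obesity, 7 to 17 weeks old, from 75000 KPN1.1 cells injected subcutaneously into the flank. KPN1.1 is a mouse lung adenocarcinoma line with the NINJA neoantigen allele, and both groups share it. Once tumors could be felt, 5 of the mice whose tumors were sequenced received daily intraperitoneal liraglutide, a GLP-1 receptor agonist, at 0.2 ug per gram of body weight, and 5 received the PBS vehicle, until tumors were removed 19 to 22 days after injection. Each sample is a bulk fragment of 1 tumor from a single cell line, so tumor cells and mouse host cells were measured together, and fewer cells of a type cannot be told apart from less RNA per cell.

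The proteasome degrades proteins that carry ubiquitin chains. Its 20S core is a barrel of outer alpha rings, which gate the entrance, and inner beta rings, which hold the protease sites. The 19S cap on its end binds ubiquitin, removes it, and unfolds the protein with a ring of ATPases. Other activators can take the place of the cap, and dedicated chaperones build the core. By these roles the 47 genes were 8 alpha genes (Psma), 8 beta genes (Psmb), 6 ATPase genes (Psmc), 14 non-ATPase genes of the lid and base (Psmd), 6 genes of activators and an inhibitor (Psme and Psmf), and 4 core assembly chaperones (Psmg). Within the Psmd genes, Psmd5, Psmd9 and Psmd10 encode chaperones of the base, and are counted there with the subunits. The rule also took in Psmc3ip, which is named for binding the Psmc3 protein and encodes a cofactor of meiotic recombination, not a proteasome protein.

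Of the 47 genes, 44 had enough counts to be tested among 17464 genes. None of the 44 passed edgeR's quasi-likelihood test at an adjusted p of 0.05, and 0 of the 17464 genes did (0%), so every difference given below is a measured value that did not pass the test across all genes. The smallest adjusted p of a proteasome gene was 0.482. limma-voom also called 0 of the 44. DESeq2 called 52 genes in all, and 0 of the 29 proteasome genes to which it gave an adjusted p. The smallest of these was 0.0685, for Psma5. It gave no adjusted p to the other 15, among them Psmb3. Without its independent filtering DESeq2 called 11 genes in all and 0 of the 44, with 0.288 for Psmb3 as the smallest adjusted p. The log2 fold change of liraglutide against vehicle was negative in 38 of the 44 (86.4%), beside 52.6% of all tested genes, with a median of -0.12 beside -0.02 over all genes. At an unadjusted p under 0.05, 10 of the 44 (22.7%) were lower and 0 were higher, beside 5.62% of all genes lower and 3.97% higher. This count of 10 was 4 when vehicle tumor 2, liraglutide tumor 4 or liraglutide tumor 5 was left out, and 6 without liraglutide tumor 1. The share over all genes was not counted in these fits. Genes of one complex were measured in the same 10 libraries, so such counts are not counts of independent events.

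Of the 38 negative values, 34 lay in the core and the cap. All 34 tested genes of these parts had a negative log2 fold change, with a median of -0.15. Negative values were found in 2 of 5 activator and inhibitor genes and 1 of 4 assembly genes. The 34 include the base chaperones Psmd5, Psmd9 and Psmd10, at -0.23, -0.11 and -0.17. The 4 assembly genes are chaperones of the core alone. The medians were -0.26 for the alpha genes, -0.12 for the beta genes, -0.10 for the ATPases, -0.16 for the lid and base, 0.01 for the activators and inhibitor, and 0.02 for the assembly genes. The small medians of the activators and the assembly genes turned their sign under other processing. Of the assembly genes 3 were negative without vehicle tumor 2 (median -0.038), with 1 surrogate variable, an estimated hidden factor, in the fit (-0.033) and without vehicle tumors 1 and 2 together (-0.074). Of the activator and inhibitor genes 3 were negative without liraglutide tumor 1 (median -0.0054), without vehicle tumor 5 (-0.030), with a gene length offset (-0.0062) and without vehicle tumors 1 and 2 together (-0.040). With scaling by library size alone, 28 of the 34 core and cap genes stayed negative, with medians of -0.21 for the alpha genes, -0.064 for the beta genes, -0.039 for the ATPases, -0.11 for the lid and base and -0.093 over the 34. The ATPase median was -0.049 without liraglutide tumor 1, -0.037 with 1 surrogate variable and -0.052 without vehicle tumors 1 and 2, and the beta median was -0.19 without these 2 tumors. Without vehicle tumor 5, 29 of the 34 were negative. No test compared these parts with each other.

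**Figure D1:**
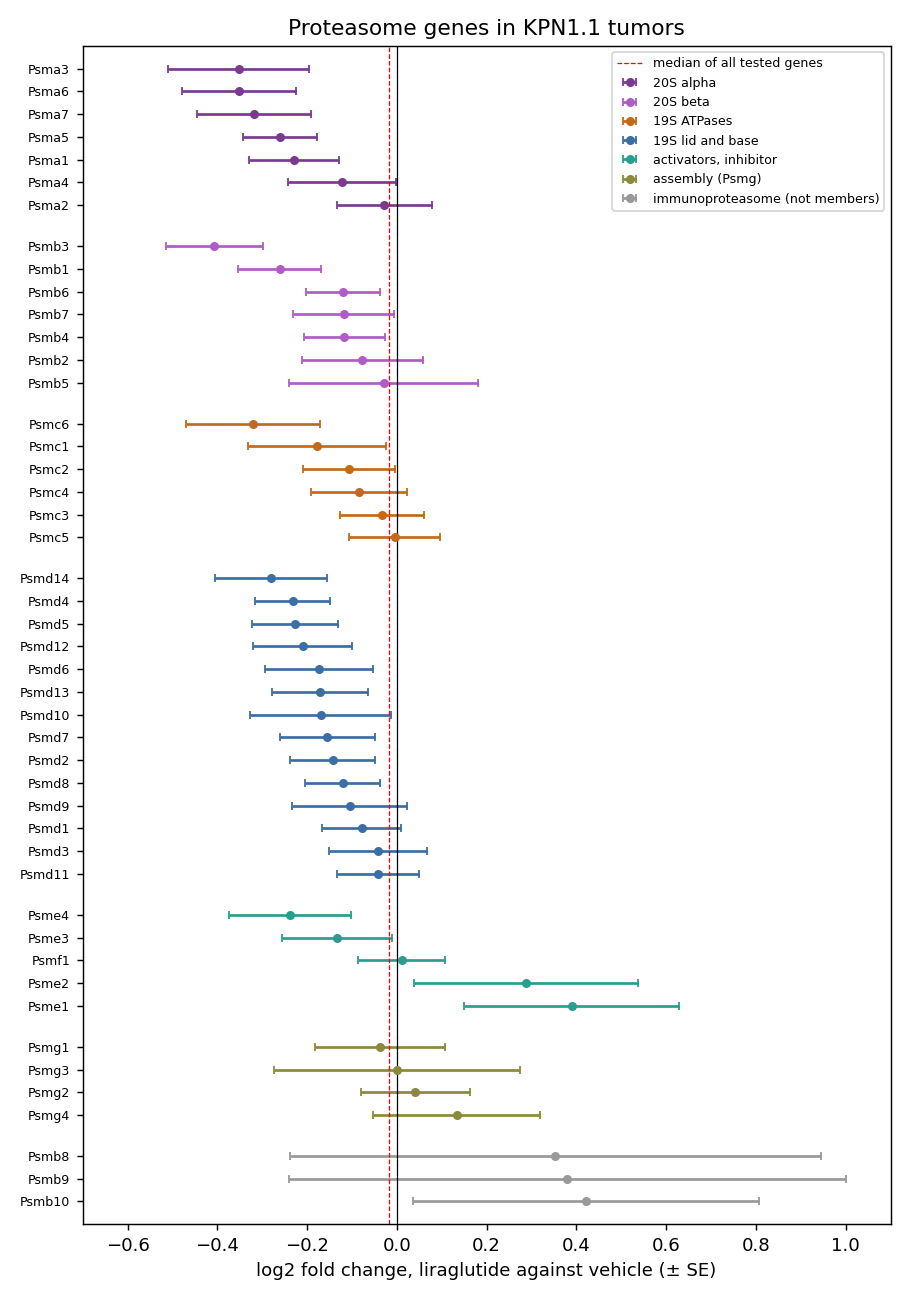
Log2 fold change of liraglutide against vehicle for each tested proteasome gene with its standard error (5 tumors a group), grouped and colored by part, with the immunoproteasome genes in gray and the median of all tested genes as a dashed line. All points of the alpha, beta, ATPase and lid and base groups lie left of 0, from Psmb3 at -0.41 to Psmc5 just under 0, while Psme1 and Psme2 lie right of 0 with wide errors.

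Summed over the 44 tested genes, proteasome transcripts made up 0.354% to 0.372% of the counts in vehicle tumors and 0.321% to 0.364% in liraglutide tumors. Levels below are counts scaled to library size times the TMM factor (CPM), which evens out the bulk of genes between libraries and was 0.951 to 1.02 in vehicle and 1.01 to 1.05 in liraglutide tumors. On this scale all 47 genes together came to 3626, 3787, 3756, 3669 and 3645 in vehicle tumors 1 to 5, and to 3198, 3622, 3352, 3244 and 3202 in liraglutide tumors 1 to 5. Liraglutide tumor 2 lay just below the lowest vehicle tumor and the other 4 further below. The means were 3697 ± 70.9 and 3324 ± 178 (SD, n = 5 each), a difference of -10.1%. As counts over the total without TMM, the means were 3616 ± 67.4 and 3376 ± 158, a difference of -6.6%, and liraglutide tumor 2, at 3635, lay inside the vehicle range of 3538 to 3722. Liraglutide tumors 1, 3, 4 and 5 each had 35 of the 44 genes below the vehicle median, and liraglutide tumor 2 had 23.

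Single tumors did not order all genes alike. A vehicle tumor held the highest value for 39 of the 44 genes, and which one it was varied, with 4, 8, 9, 6 and 12 genes peaking in vehicle tumors 1 to 5. The lowest value fell in a liraglutide tumor for 26 genes, and in liraglutide tumor 5 for 9 of them. For 3 of the 44 genes (6.82%), Psma5, Psmb3 and Psmd4, every liraglutide tumor lay below every vehicle tumor in CPM, beside 0.888% of all genes. Without TMM this held for 1 of the 44, Psmb3, beside 0.487% of all genes. No proteasome gene had all liraglutide tumors above all vehicle tumors on either scale, beside 0.607% of all genes with TMM and 1.03% without.

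**Figure D2:**
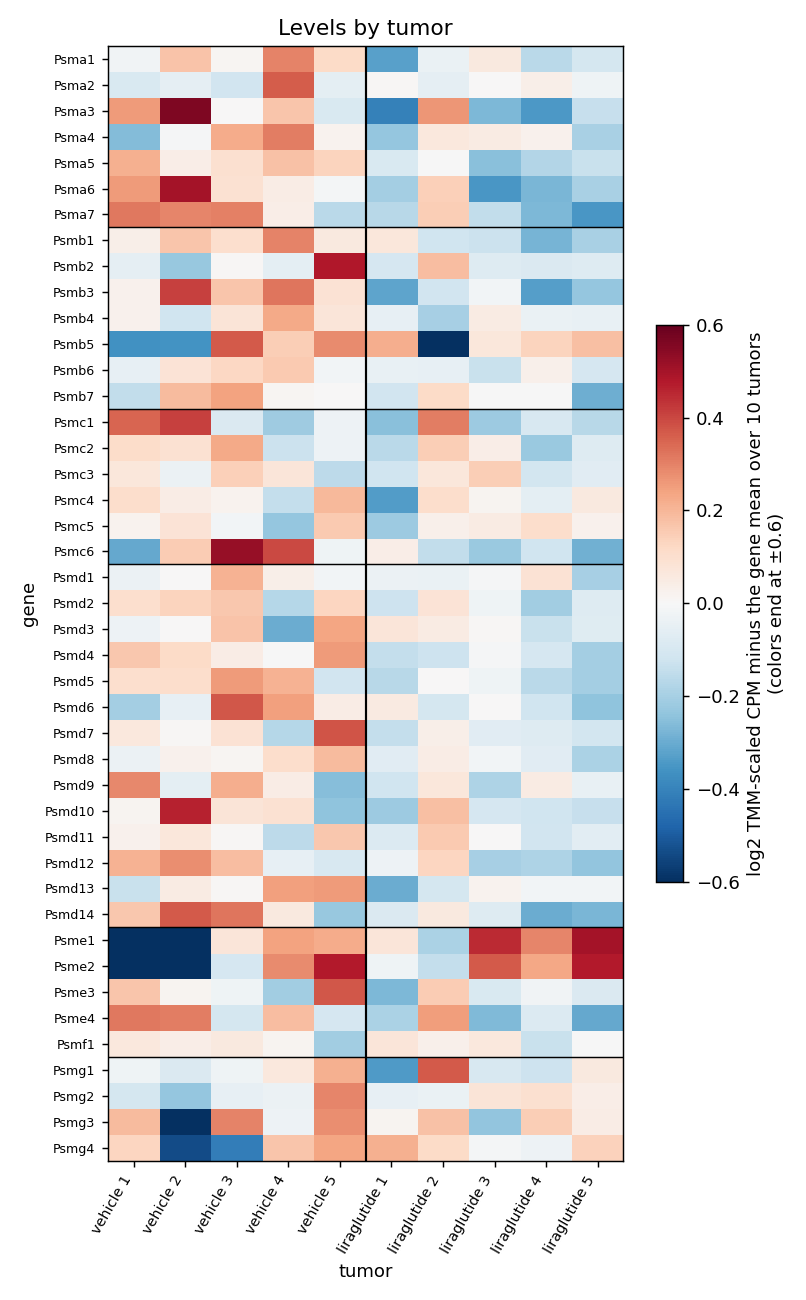
Log2 TMM-scaled CPM of 43 proteasome genes (the tested genes without Psmc3ip) in each of the 10 tumors, relative to the gene's mean over the tumors, with vehicle left and liraglutide right of the vertical line. Red marks values above the gene's mean and blue below it: the core and cap rows turn mostly blue in liraglutide tumors 1, 3, 4 and 5, less so in tumor 2, while Psme1 and Psme2 are darkest blue in vehicle tumors 1 and 2.

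Promoters of the proteasome genes were read from RefSeq windows of 300 bases, 250 before and 50 after the transcription start (GRCm38.p6). Of the 47 genes, 39 had a window, 42 windows in all. The windows of 5 genes are printed 5′ to 3′ on the strand of the gene: the 3 genes without overlap between groups in CPM, Psmb6 as a protease site, and Psme1 as an interferon-inducible activator. Capitals mark CCAAT boxes in Psmb3, the ETS site CCGGAAG in Psmd4, the antioxidant response element core TGACNNNGC, the element read by Nfe2l1 and Nfe2l2, in Psmb6, and the interferon-stimulated response element (GAAA and GAAA with 2 bases between them), on the opposite strand, in Psme1. None of the searched motifs was found in the Psma5 window, which stands without capitals.
Psma5: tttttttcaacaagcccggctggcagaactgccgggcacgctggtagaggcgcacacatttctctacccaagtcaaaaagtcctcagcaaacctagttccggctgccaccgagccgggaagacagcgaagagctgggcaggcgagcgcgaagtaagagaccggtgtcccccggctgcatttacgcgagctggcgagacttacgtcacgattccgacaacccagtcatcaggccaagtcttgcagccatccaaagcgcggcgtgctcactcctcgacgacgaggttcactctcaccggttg
Psmb3: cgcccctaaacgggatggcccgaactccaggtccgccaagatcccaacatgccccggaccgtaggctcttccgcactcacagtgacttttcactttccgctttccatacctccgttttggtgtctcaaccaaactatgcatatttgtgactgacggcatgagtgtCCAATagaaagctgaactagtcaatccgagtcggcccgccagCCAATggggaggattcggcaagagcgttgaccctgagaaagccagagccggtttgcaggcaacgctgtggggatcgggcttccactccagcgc
Psmd4: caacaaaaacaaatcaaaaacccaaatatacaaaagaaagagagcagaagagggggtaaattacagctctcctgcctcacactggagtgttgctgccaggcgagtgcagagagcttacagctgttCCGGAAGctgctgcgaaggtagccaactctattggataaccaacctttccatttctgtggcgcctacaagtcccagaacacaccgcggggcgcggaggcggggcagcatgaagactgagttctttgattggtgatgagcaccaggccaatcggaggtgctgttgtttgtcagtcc
Psmb6: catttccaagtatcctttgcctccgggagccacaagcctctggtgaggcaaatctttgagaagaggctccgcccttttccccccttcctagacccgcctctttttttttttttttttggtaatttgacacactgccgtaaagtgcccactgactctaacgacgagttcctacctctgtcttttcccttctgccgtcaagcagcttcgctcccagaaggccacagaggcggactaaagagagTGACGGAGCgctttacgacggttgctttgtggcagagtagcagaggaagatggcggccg
Psme1: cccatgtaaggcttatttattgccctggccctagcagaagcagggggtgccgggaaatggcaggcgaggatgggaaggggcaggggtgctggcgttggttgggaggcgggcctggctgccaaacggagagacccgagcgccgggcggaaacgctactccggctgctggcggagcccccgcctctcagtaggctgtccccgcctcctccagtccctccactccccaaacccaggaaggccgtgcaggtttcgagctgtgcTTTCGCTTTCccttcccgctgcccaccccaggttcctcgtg
The Psma5 window lies at chr3:108256676-108256975 on the plus strand, that of Psmb3 at chr11:97703184-97703483 (plus), of Psmd4 at chr3:95042565-95042864 (minus), of Psmb6 at chr11:70525107-70525406 (plus) and of Psme1 at chr14:55578244-55578543 (plus). With -1 as the base before the start and 1 as the first transcribed base, the marked CCAAT boxes of Psmb3 lie at -85 to -81 and -43 to -39, the ETS site of Psmd4 at -125 to -119, the antioxidant core of Psmb6 at -9 to -1, and the interferon element of Psme1 at 10 to 19. The windows of Psmb3 and Psmd4 also held an interferon element on the opposite strand, at -163 to -154 and -80 to -71, and that of Psmd4 held CCAAT boxes that are not marked. The interferon element was not found in the windows of Psme2, the partner of Psme1, nor in those of the 3 immunoproteasome genes. Of these 3, Psmb8 held the gamma-activated site TTCNNNGAA, at -97 to -89.

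No motif was found in all 3 of the genes without overlap between groups in CPM, and Psmb3 and Psmd4 shared the CCAAT box and the interferon element. Over both strands, the ETS site was in 38.1% of the 42 proteasome windows and in 8.86% of all 32851 windows, and the site of the nuclear respiratory factor NRF1 (GCGCA and GCGC with 1 base between them), a factor other than Nfe2l1, in 16.7% and 4.60%. The interferon-stimulated response element was in 11.9% and 3.44%, the antioxidant core in 14.3% and 12.4%, the CCAAT box in 33.3% and 37.4%, and the gamma-activated site TTCNNNGAA in 4.76% and 8.30%. Among the ETS genes were 10 of the 29 core and cap genes with a window. All windows include those of non-coding genes, and these matches of letters are a description with no test.

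The alpha genes showed the largest median difference of the parts. Their summed level was 721, 791, 709, 752 and 651 CPM in vehicle tumors 1 to 5 and 570, 705, 603, 583 and 586 CPM in liraglutide tumors 1 to 5. The groups overlapped only through liraglutide tumor 2, and the means were 725 ± 52.3 and 609 ± 54.8 CPM, a difference of -16.0%. Of the 7 tested alpha genes, 5 had an unadjusted p under 0.05, all lower.

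Psma5 had the smallest p of the alpha genes. It was at 79.1, 70.2, 73.1, 77.1 and 75.0 CPM in vehicle tumors and at 64.2, 68.2, 57.4, 60.5 and 62.3 CPM in liraglutide tumors. The lowest vehicle tumor lay above the highest liraglutide tumor in CPM, but without TMM vehicle tumor 2, at 66.5, lay below liraglutide tumor 2, at 68.5. The vehicle spread of 4.64% (coefficient of variation) was the narrowest of the subunits named here. The log2 fold change was -0.26 (SE 0.08, adjusted p = 0.482), a mean difference of -16.5%.

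Psma6 and Psma7, which encode other subunits of the alpha ring, had more overlap. Psma6 was at 112, 133, 100.4, 97.3 and 93.6 CPM in vehicle tumors and 82.0, 104, 74.1, 78.0 and 82.3 CPM in liraglutide tumors, so that liraglutide tumor 2 alone reached into the vehicle range. Its log2 fold change was -0.35 (SE 0.13, adjusted p = 0.482). For Psma7 the values were 157, 154, 155, 129 and 113 CPM against 112, 139, 113, 104 and 98.7 CPM, with a log2 fold change of -0.32 (SE 0.13, adjusted p = 0.503). With 1 surrogate variable Psma6 was at -0.23 and Psma7 at -0.19. Psma1 and Psma3, at -0.23 and -0.35 on the log2 scale, were also at an unadjusted p under 0.05.

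Psma4 and Psma2 were the 2 tested alpha genes with a larger p. Psma4 was at 74.0, 88.1, 103, 109 and 89.8 CPM in vehicle tumors and at 75.2, 92.5, 91.6, 90.1 and 77.4 CPM in liraglutide tumors, which all lay inside the vehicle range. Its log2 fold change was -0.12 with a 95% interval of -0.39 to 0.14 (adjusted p = 0.739). This fitted difference of -8.1% stands beside -4.6% between means without TMM. For Psma2 the vehicle tumors were at 72.0, 73.9, 70.9, 98.9 and 73.6 CPM and the liraglutide tumors at 77.1, 74.0, 76.8, 78.6 and 75.5 CPM. Every liraglutide tumor lay above all vehicle tumors other than tumor 4, which alone set the vehicle mean above the liraglutide mean. The log2 fold change was -0.03 with a 95% interval of -0.26 to 0.20 (adjusted p = 0.943), and it was 0.08 without vehicle tumor 4.

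The beta genes were summed to 386, 413, 424, 449 and 422 CPM in vehicle tumors and to 380, 369, 375, 356 and 355 CPM in liraglutide tumors. These groups did not overlap, with or without TMM, with means of 419 ± 22.6 and 367 ± 11.0 CPM and a difference of -12.4%. Most of that difference came from Psmb1 and Psmb3, which encode beta subunits without a protease site.

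Psmb3 had the largest negative fold change of all proteasome genes. It was at 46.6, 60.7, 51.2, 57.0 and 48.5 CPM in vehicle tumors and at 36.6, 42.2, 45.2, 36.3 and 38.9 CPM in liraglutide tumors. All 5 liraglutide tumors lay below all 5 vehicle tumors, with and without TMM. The means were 52.8 ± 5.91 and 39.8 ± 3.81 CPM, and the log2 fold change was -0.41 (SE 0.11, adjusted p = 0.482). Psmb1 was at 129, 141, 135, 155 and 131 CPM against 132, 116, 115, 104 and 110 CPM, where liraglutide tumor 1 lay within the vehicle range and the other 4 below it. Its log2 fold change was -0.26 (SE 0.09, adjusted p = 0.482).

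The other 5 beta genes, with and without a protease site, had smaller differences. Psmb2 and Psmb4, which also encode subunits without a protease site, were at -0.08 and -0.12 on the log2 scale (adjusted p = 0.861 and 0.674). These fitted differences of -5.2% and -7.8% stand beside -1.5% and -4.3% between means without TMM. Psmb6, the caspase-like site, was at 51.3, 56.1, 57.6, 59.0 and 52.4 CPM in vehicle tumors and 51.3, 51.3, 48.2, 54.1 and 49.4 CPM in liraglutide tumors, a log2 fold change of -0.12 with a 95% interval of -0.30 to 0.06 (adjusted p = 0.643). Psmb7, the trypsin-like site, was at 31.0, 39.1, 40.6, 34.6 and 34.4 CPM against 31.7, 37.2, 34.3, 34.3 and 28.0 CPM, a log2 fold change of -0.12 with an interval of -0.37 to 0.13 (adjusted p = 0.730). With library size alone as the scaling Psmb6 was at -0.065 and Psmb7 at -0.063 on the log2 scale, and with a gene length offset Psmb6 was at -0.072. Psmb7 was at -0.059 without liraglutide tumor 5 and at -0.067 without vehicle tumor 3. Psmb5, the chymotrypsin-like site and the main target of proteasome inhibitor drugs, was at 10.5, 10.5, 17.4, 15.0 and 16.5 CPM against 15.7, 8.41, 14.2, 14.8 and 15.3 CPM. Its log2 fold change was -0.03 with an interval of -0.49 to 0.43 (adjusted p = 0.975). These intervals hold differences as large as the medians of the alpha and beta genes, so the 3 genes of the protease sites are not shown to be unchanged, and for Psmb5 the sign turned when vehicle tumor 3, 4 or 5 or liraglutide tumor 2 was left out.

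**Figure D3:**
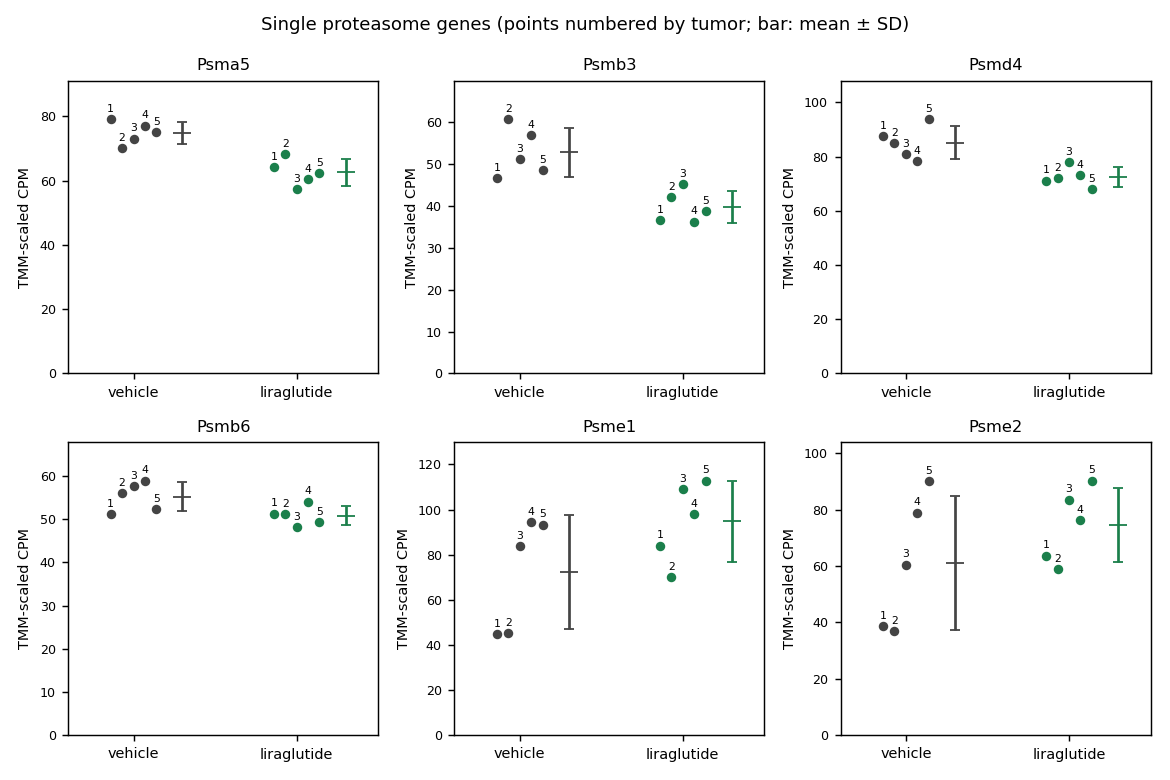
TMM-scaled CPM of 6 proteasome genes in each tumor, numbered by tumor, with the mean and SD of each group of 5. Psma5, Psmb3 and Psmd4 show no overlap between vehicle and liraglutide on this scale, where without TMM Psma5 and Psmd4 overlap, Psmb6 overlaps, and Psme1 and Psme2 spread widely because vehicle tumors 1 and 2 lie between 36.9 and 45.2 CPM.

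The 6 ATPase genes had no member at an unadjusted p under 0.05. Their sum was 573, 609, 628, 561 and 552 CPM in vehicle tumors and 499, 585, 537, 518 and 512 CPM in liraglutide tumors, with means of 584 ± 32.4 and 530 ± 33.3 CPM, a difference of -9.3%. Liraglutide tumor 2 again lay inside the vehicle range and the other 4 below it. Without TMM the difference was -5.77%, and liraglutide tumor 3, at 540.2, also lay inside the vehicle range, above vehicle tumor 5 at 536. Psmc6 had the smallest p, at 103, 141, 183, 168 and 125 CPM in vehicle tumors and 131, 115, 109, 117 and 104 CPM in liraglutide tumors. All 5 liraglutide values fell within the vehicle range, which ran from 103 to 183 CPM, and the log2 fold change was -0.32 (SE 0.15, adjusted p = 0.527). Psmc1 and Psmc2 were at -0.18 and -0.11 on the log2 scale (adjusted p = 0.703 and 0.735). With 1 surrogate variable these values were -0.026 and -0.048, and with each tumor left out they ran from -0.28 to -0.093 for Psmc1 and from -0.15 to -0.058 for Psmc2. For Psmc5 the means were 65.1 ± 6.42 and 64.8 ± 5.38 CPM, with a log2 fold change of -0.0049 and a 95% interval of -0.23 to 0.22 (adjusted p = 0.991), and its sign depended on the scaling.

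All 14 lid and base genes had a negative log2 fold change, and 3 were at an unadjusted p under 0.05. Their sum was 1325, 1374, 1420, 1258 and 1365 CPM in vehicle tumors and 1203, 1310, 1245, 1178 and 1151 CPM in liraglutide tumors. Liraglutide tumor 2 exceeded vehicle tumor 4, and the other liraglutide tumors lay below all vehicle tumors. The means were 1348 ± 61.0 and 1217 ± 62.3 CPM, a difference of -9.7%. Without TMM they were 1318 ± 31.8 and 1236 ± 48.6, a difference of -6.2%, and with library size alone as the scaling 12 of the 14 genes stayed negative.

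Psmd4, a receptor for ubiquitin chains, was at 87.7, 85.1, 81.1, 78.3 and 93.8 CPM in vehicle tumors and 71.2, 72.0, 78.1, 73.2 and 68.1 CPM in liraglutide tumors. In CPM the highest liraglutide tumor lay just below the lowest vehicle tumor, while without TMM liraglutide tumor 3, at 78.6, lay above vehicle tumor 3, at 77.8. The log2 fold change was -0.23 (SE 0.08, adjusted p = 0.482). Psmd5, a chaperone of the base, was at 58.3, 58.4, 64.9, 62.8 and 50.3 CPM against 48.4, 54.4, 53.4, 48.6 and 47.2 CPM, with a log2 fold change of -0.23 (SE 0.10, adjusted p = 0.513). Psmd14, the enzyme that cuts the ubiquitin chain from the substrate, was at 124, 143, 139, 116 and 94.8 CPM against 105, 115, 105, 90.3 and 91.8 CPM. Vehicle tumors 1 to 4 lay above all liraglutide tumors, tumor 4 only just, and the log2 fold change was -0.28 (SE 0.13, adjusted p = 0.518), or -0.17 with 1 surrogate variable. Psmd11, a scaffold of the lid, was nearest to 0 in this group, with means of 129 ± 10.2 and 125 ± 9.68 CPM and a log2 fold change of -0.04 (adjusted p = 0.892). The remaining 10 genes lay between -0.21 for Psmd12 and -0.04 for Psmd3.

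**Figure D4:**
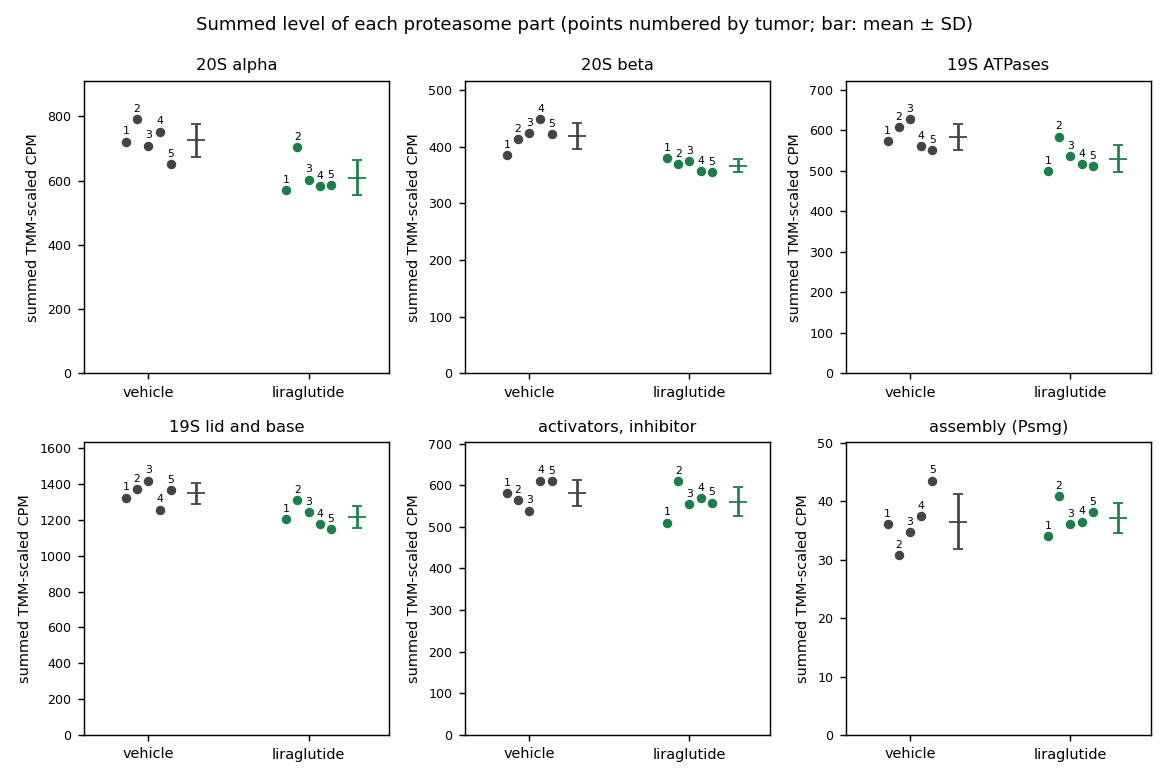
Summed TMM-scaled CPM of the genes of each proteasome part in each tumor, numbered by tumor, with the mean and SD of each group of 5 on axes that start at 0. The alpha, beta, ATPase and lid and base sums lie lower in most liraglutide tumors, with liraglutide tumor 2 the highest of its group in all of these but beta, while the activator and assembly sums overlap.

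The activators had values of both signs and did not separate the groups. Psme1 and Psme2 encode the subunits of PA28, an interferon-inducible activator that favors the making of peptides for antigen presentation. Psme1 was at 44.7, 45.2, 83.9, 94.5 and 93.3 CPM in vehicle tumors and 84.0, 70.0, 109, 97.9 and 113 CPM in liraglutide tumors. Vehicle tumors 1 and 2 stood below all other tumors, and 3 liraglutide tumors exceeded every vehicle tumor. The log2 fold change was 0.39 with a 95% interval of -0.14 to 0.92 (adjusted p = 0.605). Psme2 was at 38.5, 36.9, 60.5, 78.9 and 90.1 CPM against 63.7, 58.8, 83.6, 76.1 and 90.3 CPM, with a log2 fold change of 0.29 and an interval of -0.26 to 0.84 (adjusted p = 0.704). Vehicle tumors 1 and 2 were thus the lowest for both genes. Without vehicle tumor 1 the log2 fold change was 0.26 for Psme1 and 0.16 for Psme2, without vehicle tumor 2 it was 0.26 and 0.15, and with 1 surrogate variable it was 0.15 and 0.048.

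The other activators had negative values. Psme4 encodes PA200, a single-chain activator found mostly in the nucleus, and was at 343, 341, 257, 314 and 257 CPM in vehicle tumors and 242, 328, 229, 260.5 and 223 CPM in liraglutide tumors, with a log2 fold change of -0.24 (SE 0.14, adjusted p = 0.587), or -0.14 with 1 surrogate variable. It was the most abundant proteasome transcript by CPM, which does not correct for its long transcript. Psme3, the nuclear relative of PA28, had means of 120.4 ± 18.5 and 110 ± 11.6 CPM and a log2 fold change of -0.13 (adjusted p = 0.720). This fitted difference of -8.8% stands beside -5.2% between means without TMM. For the inhibitor Psmf1 the means were 24.6 ± 1.87 and 24.8 ± 1.39 CPM. Its log2 fold change was 0.01 with a 95% interval of -0.20 to 0.22 (adjusted p = 0.978).

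Psmb8, Psmb9 and Psmb10, which are no members of the set, replace Psmb5, Psmb6 and Psmb7 in the interferon-inducible immunoproteasome. Psmb8 was at 6.56, 11.4, 16.5, 49.7 and 79.2 CPM in vehicle tumors and 19.5, 36.5, 52.8, 44.0 and 55.9 CPM in liraglutide tumors, a log2 fold change of 0.35 (SE 0.59, adjusted p = 0.852). All liraglutide values lay inside the range of the vehicle tumors, which differed among themselves more than the groups did. Psmb9 and Psmb10 had the same 2 vehicle tumors, 4 and 5, as the highest of their group, with log2 fold changes of 0.38 and 0.42 (adjusted p = 0.848 and 0.719).

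The balance between inducible and constitutive genes was taken as the log2 ratio of their counts in each tumor. The mean ratio of Psmb8 to Psmb5 was 0.67 ± 1.26 in vehicle and 1.55 ± 0.72 in liraglutide tumors (SD, n = 5 each), a difference of 0.88 (two-sided exact permutation p = 0.222). Psmb9 to Psmb6 differed by 1.02 (exact p = 0.238) and Psmb10 to Psmb7 by 0.73 (exact p = 0.183). Psme1 and Psme2 relative to Psme3 differed by 0.57 and 0.49 (exact p = 0.119 and 0.175). All 5 ratios had higher means in liraglutide tumors, but none differed beyond the spread between tumors, and each had an adjusted p of 0.238 over the 5. The spread was wider among vehicle than among liraglutide tumors for every ratio, a difference that was not tested.

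**Figure D5:**
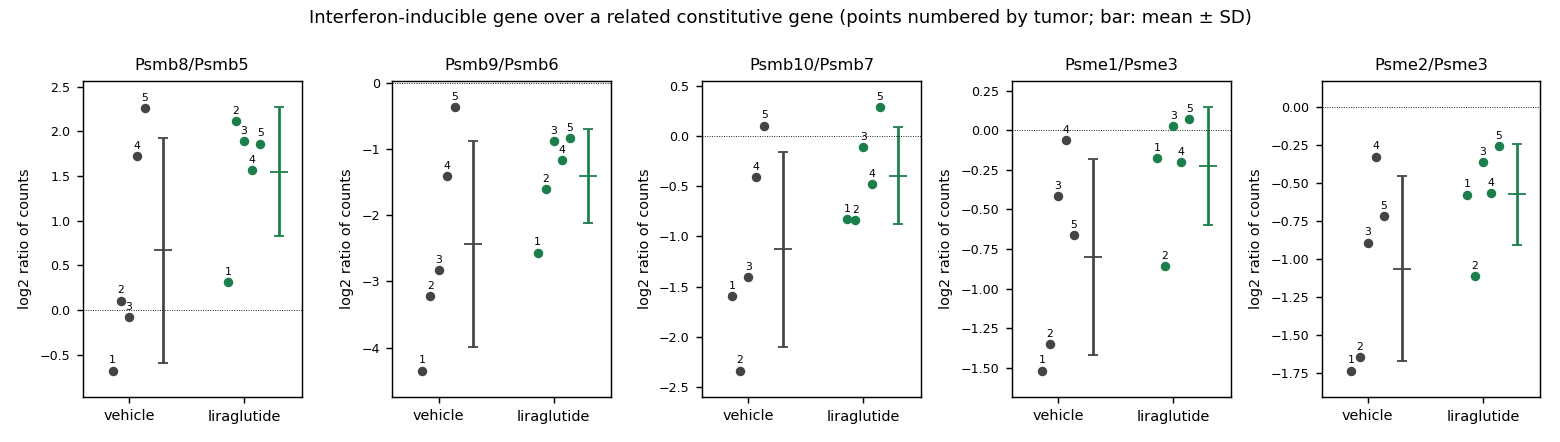
Log2 ratio of the counts of an interferon-inducible gene to a related constitutive gene in each tumor, numbered by tumor, with the mean and SD of each group of 5 and a dotted line at equal counts. The liraglutide means are higher in all 5 panels, by 0.49 to 1.02, but lie inside the wide spread of the vehicle tumors, in which tumors 1 and 2 are among the 3 lowest.

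Leukocyte marker genes varied among the tumors as well. Of 18 tested markers of 20 listed, 15 had a positive log2 fold change and 0 were at an unadjusted p under 0.05, and their summed level was 277 to 535 CPM in vehicle and 337 to 596 CPM in liraglutide tumors. Vehicle tumors 1 and 2, the lowest for Psme1, Psme2 and Psmb8, had the lowest leukocyte sums, 293 and 277 CPM. The part of leukocytes in these values was not tested.

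The 4 assembly chaperones were low and close between groups. Psmg1 was at 14.1 ± 1.17 CPM in vehicle and 13.7 ± 2.59 CPM in liraglutide tumors (log2 fold change -0.04, adjusted p = 0.944), and its partner Psmg2 at 14.9 ± 2.12 and 15.3 ± 0.704 CPM (0.04, adjusted p = 0.921). The sign of each turned under other processing. Psmg3 was at 1.92 ± 0.538 and 1.93 ± 0.209 CPM, with an interval of -0.60 to 0.60 on the log2 scale. Psmg4 was at 5.68 ± 1.34 and 6.25 ± 0.448 CPM (log2 fold change 0.13, adjusted p = 0.817). With each tumor left out its log2 fold change ran from 0.034, without vehicle tumor 2, to 0.22, without vehicle tumor 5, and it was 0.060 without vehicle tumor 3, 0.068 with 1 surrogate variable and 0.21 with a gene length offset. Their 95% intervals all include 0, and at 1 to 18 CPM their counts were among the smallest of the set. Psmc3ip was at 3.25 ± 1.41 and 2.71 ± 0.984 CPM, with a log2 fold change of -0.27 (adjusted p = 0.806). Its value ran from -0.44 to -0.097 with each tumor left out, and its sign turned with 1 surrogate variable, at 0.083, and without vehicle tumors 1 and 2 together, at 0.24.

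The 3 genes left out of the test were tissue-restricted or a gene copy. Psma8, the alpha subunit of the testis, had 0 to 9 counts a tumor. Psmb11, the beta subunit of the thymus cortex, had 0 to 1, as did Psme2b, a copy of Psme2. A count of 0 allows up to 3 counts, or 0.207 to 0.315 TMM-scaled CPM at the depth of these libraries, by counting error alone.

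Levels of different genes were compared per kilobase of the canonical transcript, as mean CPM per kb over the vehicle tumors. Although subunits of a ring are built in at equal number, their transcript levels per kb differed. In the alpha ring they ran from 22.2 for Psma2 to 150 for Psma7, a ratio of 6.75, and in the beta ring from 8.22 for Psmb5 to 68.2 for Psmb3, a ratio of 8.30. The ATPases were the most even, from 30.7 for Psmc2 to 66.5 for Psmc3, a ratio of 2.16. The lid and base ran from 6.61 for Psmd9 to 85.7 for Psmd2, a large base subunit. The assembly genes lay between 2.16 and 13.5, and none reached the median of the core or cap parts. These levels depend on the transcript chosen and on how reads shared with processed pseudogenes were counted, which the sources used here do not give. The median coefficient of variation among vehicle tumors was 14.0% for proteasome genes, beside 24.5% for all tested genes, which were not matched for level. It was 10.6% for the COP9 signalosome, a relative of the lid, 12.6% for the translation initiation complex eIF3, 13.9% for the CCT chaperonin and 16.1% for ribosomal proteins, so a narrow spread was not particular to the proteasome genes, and no test compared these values.

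Other genes of the pathway, from a list of 36 partners, leaned the same way. Of the 35 found and tested, 28 had a negative log2 fold change, 9 were at an unadjusted p under 0.05 and lower, 0 were higher, and 0 were called, with a median of -0.10. Sem1, a small lid subunit whose symbol lies outside the rule, was at 57.1 ± 4.65 CPM in vehicle and 48.8 ± 3.43 CPM in liraglutide tumors (log2 fold change -0.23, adjusted p = 0.509). Adrm1, a ubiquitin receptor, was at -0.03 and Pomp, the maturation chaperone of the core, at -0.08 (adjusted p = 0.923 and 0.801). The transcription factors had positive values. Nfe2l1, which drives proteasome gene expression when the proteasome is impaired, was at 0.15 (adjusted p = 0.817), its relative Nfe2l2 at 0.31 (adjusted p = 0.593), and Ngly1, the enzyme that helps activate Nfe2l1, at 0.13 (adjusted p = 0.816).

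Other ubiquitous protein complexes give a scale for the proteasome values. The COP9 signalosome had 9 of 10 genes with a negative log2 fold change and a median of -0.17. The eIF3 complex had 12 of 13 and a median of -0.17, and the CCT chaperonin had 8 of 8 and a median of -0.32. Cytoplasmic ribosomal proteins had 83 of 87 and a median of -0.38, larger in size than the median of any proteasome part. Negative values were thus not particular to the proteasome genes.

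Other marker lists were summed in the same tumors. The 10 proliferation markers all had a negative log2 fold change, with a median of -0.39, and their sum was 1045 to 2132 CPM in vehicle and 1236 to 2008 CPM in liraglutide tumors. Vehicle tumor 4 had the lowest proliferation sum of all 10 tumors and a proteasome sum of 3669 CPM, above every liraglutide tumor. Liraglutide tumor 2, with the highest proteasome sum of its group, had its highest proliferation sum and its highest keratinocyte sum, 228 CPM, where the vehicle tumors were at 10.2 to 22.3 CPM. The keratinocyte sums of liraglutide tumors 1, 3, 4 and 5 were 8.81, 10.6, 88.3 and 60.1 CPM, so tumors 1 and 3 were not above the vehicle range. Of the keratinocyte list, 7 of 7 tested genes had a positive log2 fold change and 6 were at an unadjusted p under 0.05, while Krt5 was at 0 in 4 tumors and Krt1 in 5. Muscle markers summed to 40.7 to 271 CPM in vehicle and 90.1 to 357 CPM in liraglutide tumors, and fibroblast markers to 1749 to 4107 and 2379 to 4027 CPM. Endothelial markers summed to 117 to 196 CPM in vehicle and 124 to 159 CPM in liraglutide tumors. Adipocyte markers were at 55.3 to 152 and 56.9 to 136 CPM. Lung epithelial markers summed to 4729 to 10128 CPM in vehicle and 4949 to 7331 CPM in liraglutide tumors, mainly through keratins, while the alveolar markers Sftpc and Hopx were each at 0 in 1 tumor and at most 5.96 and 1.06 CPM. The part of these cells or of proliferation in the proteasome values was not tested.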

How the data were processed

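RNA was measured in 10 tumors, 5 vehicle and 5 liraglutide. The authors deposited raw counts per gene, made after ribosomal RNA depletion and paired-end sequencing by mapping with Bowtie and TopHat and counting with featureCounts, with low-quality samples left out. Their methods name GRCm39, while the submitters' processing notes name mm10 and GRCh38 and FastQC. The annotation release, the strand setting and the treatment of multiply mapped reads are not given in the sources used here. Identifiers were matched without version to GENCODE M39, which gave symbols and canonical transcript lengths for 51731 of them (93.38%, holding 98.31% of counts). Groups and tumor numbers came from the sample labels. No source ties equal numbers to a shared mouse or batch. Nothing states separate litters or cages, so p-values measure the spread between these tumors.

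Total counts ran from 9927942 to 14480593, and mitochondrial genes took 1.51% to 1.95%. Genes were filtered with edgeR 4.0.16 (filterByExpr), scaled by TMM and tested in R 4.3.3 by its quasi-likelihood method, in a model that held treatment alone. P-values were adjusted over all 17464 genes by Benjamini-Hochberg (threshold 0.05). CPM are counts over the library size of the tested genes times the TMM factor, and shares of counts are over the total without TMM. Fold changes are the fitted values with 95% intervals. Ratios used counts plus 0.5. Two-sided exact permutation tests over tumors were used for single values. The gene test was also run on simulated counts, with the outcome not given here. Alternatives were DESeq2 1.42.0 (the test of the authors), limma-voom 3.58.1, other scalings and filters, a gene length offset, 1 surrogate variable (sva 3.50.0), a replicate block, and each tumor left out. Named genes were the protease sites, the 3 smallest p and the value farthest opposite to the median in each part, genes with groups that do not overlap, and genes below the filter. Other genes were named after their values were seen. The members, lists and tests were chosen with earlier results of these data known. Some alleles of the cell line and 1 marker gene are not reported here.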

Additional observations from a re-analysis of the deposited data

Results flagged for a closer look

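In groups of 5 tumors, a value was taken as standing apart when its gap to the nearest tumor was over 0.710 of the range of the group (Dixon's criterion). Of 70 groups looked at, 6 held such a value, where chance alone gives about 3.5. Psma2 in vehicle tumor 4 was at 98.9 CPM, above the other 4 vehicle tumors at 70.9 to 73.9 CPM. Psmc5 in liraglutide tumor 1 was at 55.6 CPM, below the others at 65.8 to 69.7 CPM. The other 4 such values were all in liraglutide tumor 2: Psma6 was at 104 CPM (others at most 82.3 CPM), Psmc1 at 126 CPM (others at most 94.8 CPM), and the summed alpha genes at 705 CPM (others at most 603 CPM), while Psmb5 was at 8.41 CPM (others at least 14.2 CPM). This tumor also had the highest keratinocyte sum, 228 CPM, whose part in these values was not tested.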

How the results depend on the processing

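Under the alternatives run, 0 proteasome genes were called, and the smallest adjusted p of one was 0.0685, for Psma5 in DESeq2, which called 52 genes in all and gave 15 of the 44 no adjusted p. Between 31 and 39 of the 44 tested genes had a negative log2 fold change. With library size alone as the scaling, the median of the proteasome genes was -0.068, where the median of all genes was 0.037, 4 genes were lower at an unadjusted p under 0.05, and the log2 fold changes turned to 0.024 for Psma2, 0.028 for Psmb5, 0.053 for Psmc5, 0.014 for Psmd11 and 0.016 for Psmg1. With at least 10 counts in every tumor Psmc5 was at 0.019, and 6 genes were lower at that level. With a gene length offset Psmc5 was at 0.022 and Psmg1 at 0.0075, and with 1 surrogate variable Psmg2 was at -0.034. With each tumor left out, the median ran from -0.15 to -0.10, the number lower from 33 to 39, and the log2 fold change from -0.055 to 0.081 for Psma2, -0.12 to 0.11 for Psmb5, -0.052 to 0.045 for Psmc5, -0.079 to 0.0014 for Psmd11, -0.14 to 0.034 for Psmg1 and -0.0096 to 0.14 for Psmg2. The log2 fold changes of Psme1 and Psme2 then ran from 0.26 to 0.51 and from 0.15 to 0.48. The log2 ratio differences then ran from 0.55 to 1.28 for Psmb8 to Psmb5, 0.54 to 1.54 for Psmb9 to Psmb6, 0.43 to 1.04 for Psmb10 to Psmb7, 0.40 to 0.76 for Psme1 to Psme3 and 0.32 to 0.67 for Psme2 to Psme3, with adjusted p of 0.106 to 0.437. Same-numbered tumors were not taken as pairs. Of the 5 correlations of their deviations from the group means, 3 were over 0.1, a limit that cannot settle whether equal numbers share a batch. The mean correlation was 0.26 for same-numbered and -0.068 for different-numbered tumors, and 1 of the 5 numbers correlated best with its own. With the replicate block, 0 genes were called, the median was -0.12, and 12 genes were lower and 2 higher at an unadjusted p under 0.05. The share of all genes at that level was not counted in any alternative. In an alternative chosen after seeing the data, without vehicle tumors 1 and 2 together, 38 genes had a negative value with a median of -0.13, and 5 were at an unadjusted p under 0.05. DESeq2 without independent filtering, added later, called 11 genes in all. The 3 genes whose groups did not overlap in CPM were 2 with DESeq2 size factors and 1 without TMM, also chosen later. Without Psmc3ip, Psme1 and Psme2, also chosen later, 37 of 41 had a negative value. The cause of these shifts was not tested.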
